A study of Mus musculus with 116 samples.

Results

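Repair of a zinc-finger nuclease break was compared between Lig4-/- cells and clones in which Ku70 was deleted as well. All libraries labelled Lig4-/- clone D, Lig4-/- Ku70-/- clone D1 or Lig4-/- Ku70-/- clone D2 with the nuclease induced were taken, 3 of each, which made 9 of the 116 samples in the series. The cells were v-Abl pro-B cells, mouse B-cell precursors transformed with the v-Abl oncogene, and every group carried the Emu-Bcl2 transgene and lacked Lig4, so the clone D libraries are the controls of both comparisons. All were arrested in G1 by 96 h in 3 µM STI-571, which inhibits the Abl kinase, and doxycycline at 2 µg/ml induced ZFN-Eb, a nuclease directed at the Eb site on chromosome 6. Each group is 1 clone, the labels do not say how the clones were derived, and D1 and D2 were compared with clone D separately. The labels do not say whether replicate libraries came from separate cultures, so the p-values measure only the spread between libraries, which may be technical. The files hold joined reads and no RNA, so the loss of Ku70 itself was not measured here.

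Ku70 is a subunit of the Ku ring, which threads onto broken DNA ends, shields them and recruits the classical end-joining factors. DNA ligase IV performs the last step of that pathway. Cells without it can still join ends by alternative pathways, which often trim the ends and align short stretches of identical bases, called microhomology, before sealing. In G1-arrested v-Abl cells the RAG recombinase is also active, and it cuts at the V and J segments of the immunoglobulin kappa light-chain locus, Igk. RAG cutting at a segment makes a coding end, which bears the gene segment, and a signal end, which bears the recombination signal.

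The break lies in the T-cell receptor beta locus, Tcrb, between Trbc2 and Trbv31, 6795 bp after the first and 2712 bp before the second. In the assay a primer beside the break reads out of a fixed broken end, the bait, into whatever sequence, the prey, has been joined to it. The sequence around the break is given as the majority base of the deposited reads, for mm10 chr6:41554927-41555025 on the plus strand. Capitals mark the 4 bases between the bait end and the prey start that were most frequent in the Lig4-/- clone D libraries with Lig4 restored; those positions, 41554976 and 41554981, were taken as the edges of the break.

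Break region: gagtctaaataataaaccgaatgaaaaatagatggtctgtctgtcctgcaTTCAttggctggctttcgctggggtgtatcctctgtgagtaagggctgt

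Base loss was counted outward from these edges, and bases shared by bait and prey at a junction were counted as kept on both sides. The aligned bait was at least 25 bp long in every library of the 3 groups, so bait losses above 40 bp were not seen.

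The Lig4-/- libraries held 339, 660 and 665 junctions, those of D1 17254, 16870 and 17245, and those of D2 17177, 16257 and 6164. A share of 3 junctions is 0.885% in the smallest library and 0.0174% in the largest. The reads carry no molecular identifiers, so counting limits cover sampling of reads only. Read names place the Lig4-/- libraries in the same sequencing run as the libraries with Lig4 restored, and D1 in another. D2 replicate 1 was in a further run, and D2 replicates 2 and 3 shared yet another. Sequencing run and genotype therefore cannot be told apart among the 9 libraries. Among junctions that remove sequence on chr6, the percentage not shared by a pair of libraries, each scaled to 100%, was 15.5 to 17.2% among the D1 libraries. D2 replicate 2 stood at 15.8 to 17.8% from the D1 libraries but at 26.1% from D2 replicate 1 and 27.0% from D2 replicate 3, which were 18.9% from each other. No read name was shared by replicates of a group. D2 replicate 2 thus lay nearer to the D1 libraries than to the other D2 libraries, and D2 replicate 1 stood apart by its prey on other chromosomes. The labels place replicate 2 in D2, and whether it was made from clone D2 or D1 was not tested. The D2 means, and the differences between D2 and D1, rest on it. The D2 values are therefore given by library and, where it matters, without these libraries.

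Joined reads were far more numerous without Ku70. Per 100000 raw reads, the Lig4-/- libraries gave 56.5, 110 and 111 junctions. D1 gave 2876, 2812 and 2874. D2 gave 2863, 2710 and 1027, so that its lowest library lay above every Lig4-/- library. On the log2 scale the difference from Lig4-/- was 5.01 ± 0.32 (SE, n = 3 libraries a group) for D1 and 4.50 ± 0.58 for D2. Cut frequency and cell number were not measured, so more joining per cut and more cuts per read cannot be told apart.

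Across 15 measures of junctions, D1 did not overlap Lig4-/- in 12, or 80% of those compared, with 6 higher and 6 lower. D2 did not overlap Lig4-/- in 9, or 60%, with 5 higher and 4 lower. With 3 libraries against 3 the two-sided exact permutation test cannot give a p below 0.1, and each of those non-overlapping measures had p = 0.1 (0.155 after Benjamini-Hochberg adjustment over 34 tests). None of the 34 tests passed 0.05, and the count at an unadjusted p below 0.05 was also 0. Differences are therefore described by their size against the spread between libraries.

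Ku70 loss went with a shift from microhomology to direct joins. Direct joins, with no shared and no inserted base as aligned, made up 6.19, 7.27 and 6.32% of the Lig4-/- junctions. They made up 41.9, 42.1 and 42.3% in D1 and 40.9, 43.8 and 42.7% in D2. The difference was 35.5 ± 0.36 percentage points (SE) for D1 and 35.9 ± 0.93 for D2, many times the spread within groups. Overlaps of at least 2 bp showed the reverse. They held 77.6, 71.1 and 74.6% of Lig4-/- junctions, against 27.3, 26.3 and 25.7% in D1 and 21.9, 25.0 and 22.9% in D2. Mean overlap over junctions without insertion was 2.49 ± 0.11 bp (SD, n = 3) in Lig4-/-, 0.98 ± 0.02 bp in D1 and 0.91 ± 0.03 bp in D2.

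**Figure D1:**
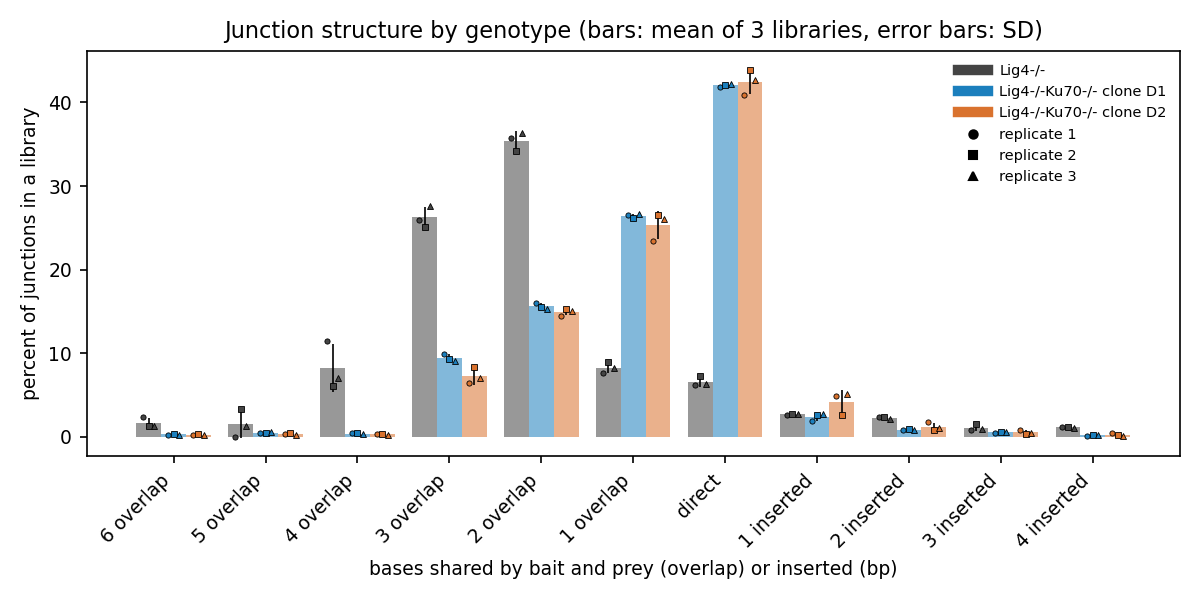
Percent of the junctions of each library (vertical axis) by the number of overlapping or inserted bases (horizontal axis), with bars for the mean of 3 libraries, error bars for the SD and points for single libraries. The Lig4-/- bars are tallest at overlaps of 2 and 3 bp, and those of D1 and D2 are tallest at direct joins and then at an overlap of 1 bp.

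The shift was already visible between overlaps of 1 bp and 2 bp. Overlaps of 1 bp made up 8.29 ± 0.64% (SD, n = 3) of Lig4-/- junctions, 26.5 ± 0.24% of D1 and 25.3 ± 1.70% of D2. At 2 bp the order turned, with 35.4 ± 1.1% in Lig4-/-, 15.6 ± 0.39% in D1 and 15.0 ± 0.40% in D2. Long overlaps were the most unequal. Those of at least 4 bp held 15.9, 11.7 and 10.5% of Lig4-/- junctions, while all 6 libraries without Ku70 lay between 0.84 and 1.46%.

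Up to a prey loss of 30 bp, microhomology varied with the prey loss in Lig4-/- more than in the clones. With no base of prey lost, overlaps of at least 2 bp held 47.1 ± 13.6% of Lig4-/- junctions, 24.3 ± 2.10% of D1 and 22.7 ± 2.71% of D2. For prey losses of 1 to 10 bp the shares were 77.2 ± 4.06, 27.9 ± 0.69 and 24.7 ± 0.83%. For prey losses of 11 to 30 bp they were 87.5 ± 4.35, 27.7 ± 0.71 and 26.0 ± 0.20%. Direct joins in D1 made up 36.5 ± 0.39% at losses of 1 to 10 bp and 47.9 ± 0.39% at 11 to 30 bp, and in D2 39.4 ± 0.21% and 49.6 ± 1.35%. In both clones the 3 libraries of the longer class lay above the 3 of the shorter class, while Lig4-/- had 6.52 ± 1.32% and 2.61 ± 2.07%.

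The same shift is seen in which junctions recurred. The 5 most frequent exact junctions of each group gave 13 different junctions. Of these, 8 were picked after their values were seen, to show leading junctions with a longer overlap and with an overlap of at most 1 bp. They are read across the joint from deposited reads, 20 bases on each side. Capitals mark the overlap that could come from either end, and all-lower-case sequences were aligned as direct joins. All lie on chr6 in mm10, plus strand.

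TCCT overlap, bait loss 3 bp, prey loss 24 bp: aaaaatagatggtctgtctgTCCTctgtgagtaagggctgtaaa
CTG overlap, bait loss 2 bp, prey loss 4 bp: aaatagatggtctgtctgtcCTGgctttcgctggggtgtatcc
CTG overlap, bait loss 11 bp, prey loss 4 bp: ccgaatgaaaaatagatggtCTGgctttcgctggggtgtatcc
GC overlap, bait loss 1 bp, prey loss 3 bp: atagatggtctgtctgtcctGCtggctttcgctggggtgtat
TGG overlap, bait loss 15 bp, prey loss 5 bp: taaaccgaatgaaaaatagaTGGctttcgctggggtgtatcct
Direct join, bait loss 15 bp, prey loss 23 bp: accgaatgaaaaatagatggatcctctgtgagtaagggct
1 bp overlap, bait loss 26 bp, prey loss 23 bp: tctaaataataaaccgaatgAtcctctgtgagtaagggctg
Direct join, bait loss 0 bp, prey loss 1 bp: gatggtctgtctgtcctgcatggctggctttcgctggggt

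The TCCT junction ranked 1 in Lig4-/-. It held 9.73, 4.09 and 4.81% of the Lig4-/- libraries, 0.156, 0.119 and 0.0870% of D1 and 0.169, 0.117 and 0.0811% of D2. It ranked 160 in D1 and 154 in D2. A further 3 of the leading Lig4-/- junctions overlap at CTG: they join the prey start 4 bp from the break to bait ends that lost 2, 7 or 11 bp. Junctions on chr6 with a CTG overlap together held 18.0 ± 3.19% (SD, n = 3) of Lig4-/- junctions, 4.10 ± 0.25% of D1 and 3.54 ± 0.20% of D2. The GC junction was among the first 5 in all 3 groups, at 4.42, 4.85 and 4.21% in Lig4-/-, 1.80, 1.81 and 1.59% in D1 and 2.23, 1.68 and 2.51% in D2.

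The TGG junction ranked 1 in D1, at 2.29, 1.70 and 1.79%, and held 0.885, 1.21 and 1.05% of Lig4-/- and 0.914, 1.51 and 0.860% of D2. The GC junction ranked 1 in D2. Junctions with an overlap of at most 1 bp took 3 of the first 5 places in each clone and 0 in Lig4-/-. The direct join that lost 15 bp of bait and 23 bp of prey held 1.91, 1.77 and 1.73% of D1 and 1.02, 1.72 and 0.909% of D2. It was not seen in any Lig4-/- library, which allows a share of up to 0.885, 0.455 and 0.451% there. The junction that lost 26 bp and 23 bp was also not seen in Lig4-/-, and held 1.64, 1.66 and 1.87% of D1 and 0.716, 1.71 and 0.827% of D2. The direct join with bait loss 0 bp and prey loss 1 bp ranked 2 in D2, at 2.49, 1.46 and 2.19%. It held 1.14, 1.04 and 1.22% of D1 and 0.295, 0.303 and 0% of Lig4-/-. Because the TTCA between the edges is missing too, its net loss was 5 bp. The t after its bait end matches the first base of TTCA, so this junction can equally be written with a 1 bp overlap. On each of these junctions D2 replicate 2 lies nearer to D1 than the other D2 libraries do. Of the 20 most frequent junctions, all 20 in Lig4-/- had an overlap of at least 2 bp, against 7 in D1 and 7 in D2. Direct joins numbered 0, 5 and 6 among them. D1 and D2 shared 17 of their first 20 junctions, or 85% of each list, and Lig4-/- shared 7, or 35%, with each clone.

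**Figure D2:**
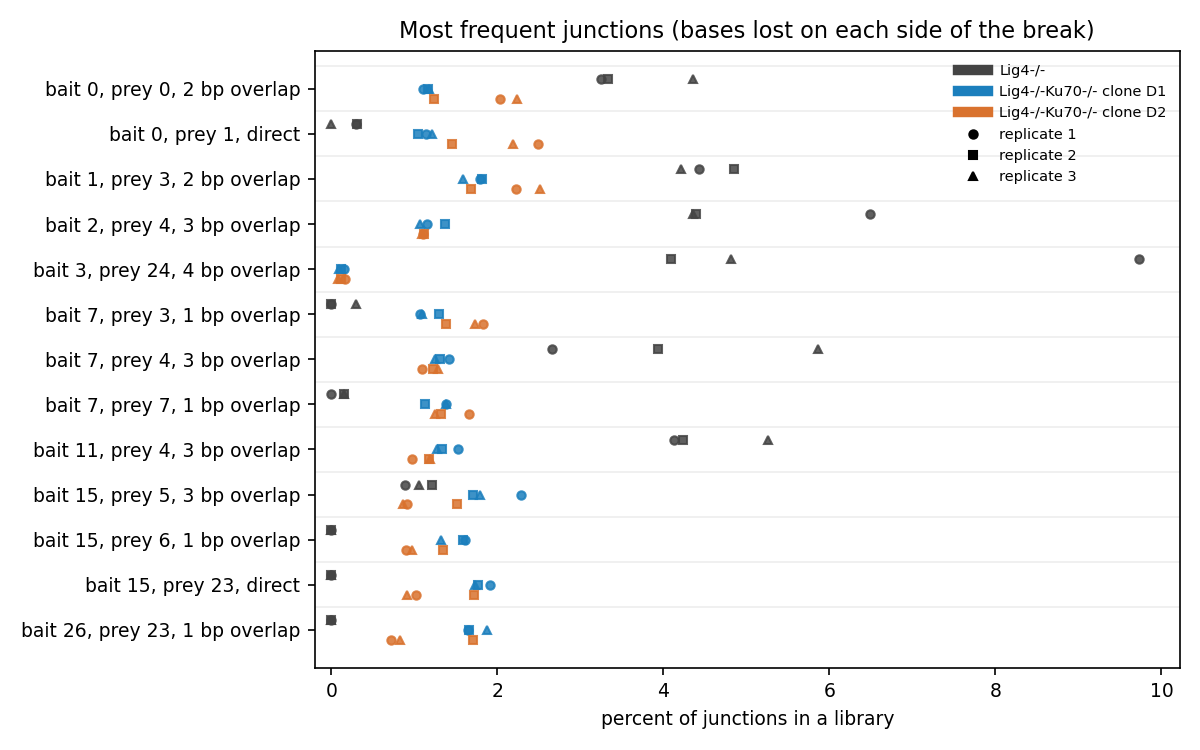
Percent of the junctions of each library (horizontal axis) for the 13 most frequent exact junctions (vertical axis, labelled by the bases lost on the bait and prey side and by overlap), with a point for each of the 9 libraries. Of the junctions, ordered by bait loss, those with an overlap of 2 to 4 bp and a bait loss of at most 11 bp lie furthest right in Lig4-/-, and the lowest 3 are at 0 in the 3 Lig4-/- libraries.

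Repair was also spread over more junctions. In 339 junctions drawn from each library, 135, 156 and 139 distinct junctions were expected in Lig4-/-, 209, 212 and 214 in D1 and 211, 213 and 194 in D2. The most frequent junction held 9.73, 4.85 and 5.86% of the Lig4-/- libraries, 2.29, 1.81 and 1.87% of D1 and 2.49, 1.72 and 2.51% of D2. On average 15.3 ± 2.52 junctions (SD, n = 3) made up 50% of Lig4-/- reads, against 76.7 ± 2.52 in D1 and 66.3 ± 11.6 in D2. Whole libraries were used for this last count, and their unequal depth was not adjusted for.

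More bases were lost from the bait end in D1 than in Lig4-/-, while D2 overlapped Lig4-/-. Median bait loss was 5, 6 and 7 bp in Lig4-/-, 13, 12 and 11 bp in D1, and 7, 11 and 7 bp in D2. Bait losses over 20 bp held 4.19 ± 0.18% (SD, n = 3) of Lig4-/- junctions and 19.8 ± 0.47% of D1. In D2 they held 11.4, 19.4 and 11.97%, so this tail lay above Lig4-/- in all 6 libraries without Ku70. The single bait end 15 bp from the break was used in 4.87, 7.32 and 3.63% of the chr6 deletional junctions of Lig4-/-, in 16.0, 15.0 and 14.9% of those of D1, and in 9.39, 14.1 and 10.8% of those of D2.

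Median prey loss did not separate the groups. It was 8, 7 and 4 bp in Lig4-/-, 8, 7 and 7 bp in D1 and 5, 7 and 5 bp in D2, with exact permutation p = 0.9 for each clone. Single prey starts did differ. The prey start 23 bp from the break was used in 0.158 to 0.325% of chr6 deletional junctions in Lig4-/-, in 9.60, 9.25 and 9.43% in D1, and in 5.95, 9.59 and 5.02% in D2. The adjacent start at 24 bp, which the TCCT junction uses, was used in 11.4, 4.55 and 5.36% in Lig4-/- and in 0.49 to 1.09% in the libraries without Ku70.

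Loss over 10 bp on both sides at once was more frequent without Ku70. Bait losses above 40 bp were not seen, so junctions with a longer bait loss are absent from these shares. Among chr6 deletional junctions, more than 10 bp was missing from both ends in 11.4, 12.5 and 9.46% in Lig4-/-, in 35.9, 33.8 and 34.8% in D1, and in 19.8, 33.6 and 19.2% in D2. Without replicate 2, the D2 excess was 8.34 rather than 13.1 percentage points, and the libraries still did not overlap. Loss over 10 bp from the prey alone was the commoner form in Lig4-/-, at 29.5 ± 3.74% (SD, n = 3), against 8.84 ± 0.05% in D1 and 8.63 ± 0.70% in D2. Median net loss, the bases missing between bait and prey, was 22.5, 22 and 20.5 bp in Lig4-/-. It was 27, 26 and 26 bp in D1 and 18, 25 and 18 bp in D2. Net losses over 50 bp held 17.6 ± 0.90% of chr6 deletional junctions in Lig4-/-, 17.6 ± 0.36% in D1 and 11.2 ± 4.61% in D2. Junctions within 10 bp of the break on both sides held 36.9, 42.1 and 44.5% of Lig4-/- libraries and 29.2, 31.4 and 32.1% of D1. In D2 they held 45.8, 33.0 and 47.5%, a mean within 0.95 percentage points of Lig4-/-. Without D2 replicate 2 the difference was 5.52 points and the libraries no longer overlapped. Without D2 replicate 1 it was -0.90 points, without D2 replicate 3 it was -1.75 points, and without Lig4-/- replicate 1 it was -1.19 points.

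**Figure D3:**
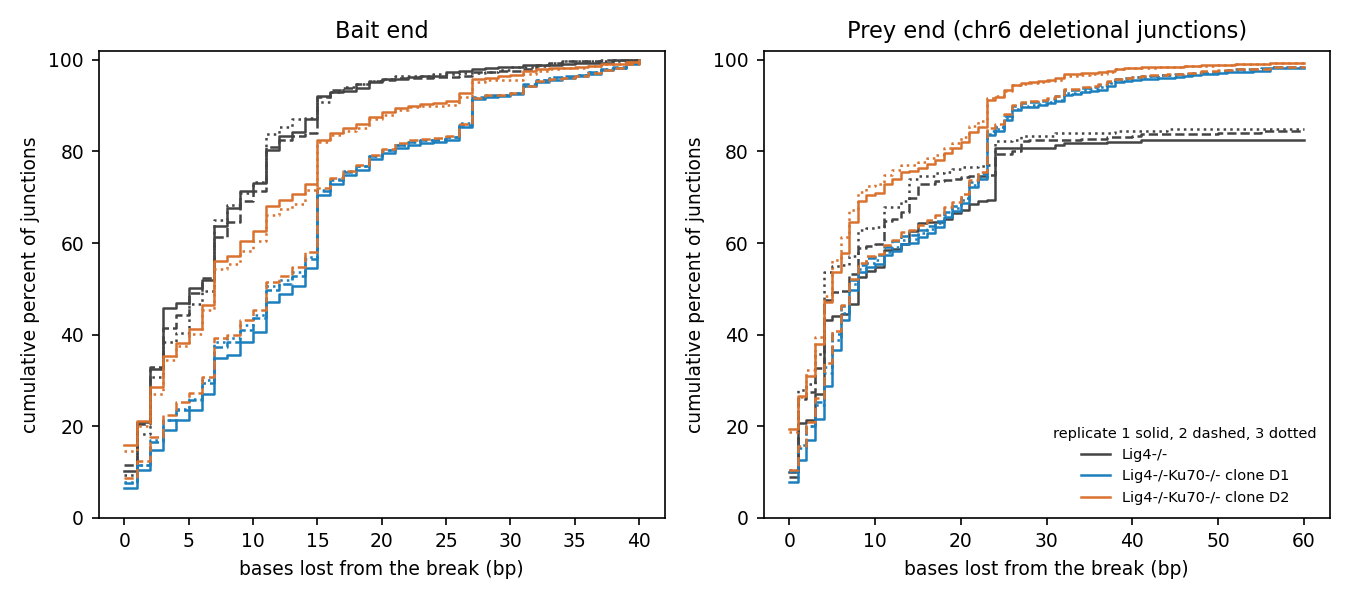
Cumulative percent of junctions (vertical axis) against the bases lost from the break (horizontal axis), for the bait end over all junctions and for the prey end over chr6 deletional junctions, with a line for each library. The bait lines of D1 and of D2 replicate 2 lie lowest, and the prey lines of Lig4-/- level off below 90% because 12.3 to 15.6% of its chr6 deletional junctions lost over 100 bp of prey.

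Long prey deletions made up a larger share of junctions in Lig4-/- than in either clone. Losses over 100 bp made up 14.2, 12.7 and 11.7% of Lig4-/- junctions, 0.313, 0.207 and 0.296% of D1 and 0.134, 0.295 and 0.195% of D2. This measure was added after the data were seen. Losses over 1000 bp numbered 25, 52 and 25 junctions in Lig4-/-, 10, 2 and 1 in D1, and 0, 4 and 0 in D2. The longest seen was 4287 bp, in each of the 3 Lig4-/- libraries. Of 162 distinct losses over 100 bp in Lig4-/-, 10 were seen in at least 2 libraries and 7 in all 3. In D1 0 of 111 were seen in at least 2 libraries, and in D2 1 of 74. Whether the Lig4-/- libraries share the same joining events was not tested. The 90th percentile of prey loss was 685.5, 466.8 and 191.3 bp in Lig4-/-, 29, 27 and 28 bp in D1, and 23, 26 and 23 bp in D2.

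Counted per 100000 raw reads, these long deletions came to 8, 14 and 13 in Lig4-/-, 9, 5.83 and 8.5 in D1, and 3.83, 8 and 2 in D2. D1 overlapped Lig4-/-, and the highest D2 library equalled the lowest Lig4-/- library. Inverted joins within 100 kb held 0.885, 2.27 and 1.35% of Lig4-/- junctions, 0.0290, 0.0178 and 0.0232% of D1, and 0.0058, 0.0062 and 0.0324% of D2. In reads they numbered 3, 15 and 9, then 5, 3 and 4, then 1, 1 and 2, so that D1 overlapped Lig4-/- in number and D2 lay below it.

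The excess of reads in D1 and D2 therefore differed by type of junction. Direct joins numbered 6.17 ± 2.36 per 100000 raw reads (SD, n = 3) in Lig4-/-, 1201 ± 15.7 in D1 and 932 ± 427 in D2. Overlaps of 1 bp stood at 7.78 ± 3.00, 755 ± 16.2 and 552 ± 248. Overlaps of 2 or 3 bp stood at 57.1 ± 19.5, 715 ± 28.2 and 489 ± 228. Overlaps of at least 4 bp stood at 11.2 ± 1.96, 39.7 ± 1.29 and 24.2 ± 13.9. By library this last class came to 9, 12.8 and 11.7 in Lig4-/- and to 28.5, 35.3 and 8.67 in D2. D2 replicate 3 thus lay below every Lig4-/- library in it. The ratio of D1 to Lig4-/- was thus 195 for direct joins, 97.1 for 1 bp, 12.5 for 2 or 3 bp and 3.56 for at least 4 bp, and the ratios of D2 were 151, 71.0, 8.57 and 2.16. These ratios of group means have no test of their own.

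**Figure D4:**
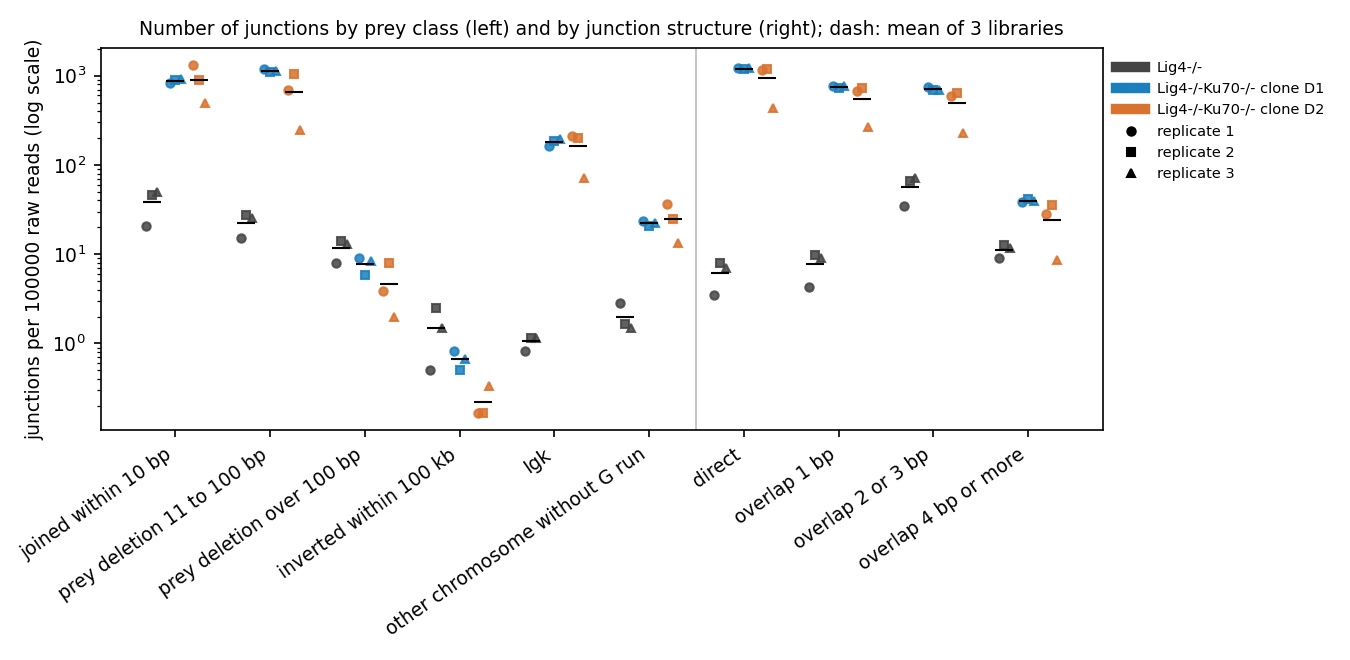
Junctions per 100000 raw reads on a log scale (vertical axis) for classes of prey and of junction structure (horizontal axis), with a point for each library and a dash for the mean of 3. The means for prey losses over 100 bp and for inverted joins lie lower in D1 and D2 than in Lig4-/-, and all other classes drawn lie higher, Igk by a ratio of means of 171 in D1 and 153 in D2.

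Insertions differed in kind, and in D1 also in their share of all junctions. Junctions with at least 1 inserted base held 8.55, 12.7 and 10.8% of Lig4-/- libraries, 4.27, 5.37 and 5.43% of D1, and 13.8, 4.63 and 8.27% of D2. D1 lay below Lig4-/-, whereas D2 overlapped it over all junctions. Among junctions with prey on chr6 alone, insertions held 8.1, 12.9 and 10.8% in Lig4-/-, 3.48, 4.36 and 4.398% in D1 and 7.85, 4.04 and 7.02% in D2, so that both clones lay below Lig4-/-. Without reads that hold a run of at least 12 G the D2 difference was -4.46 percentage points, also with no overlap. Without D2 replicate 1, the D2 difference went from -1.80 to -4.25 percentage points and the libraries no longer overlapped, and without D2 replicate 2 it was 0.34 points. Among chr6 deletional junctions with an insertion, the bait had lost no base in 34.6, 25.6 and 13.6% in Lig4-/-, in 67.6, 70.2 and 72.9% in D1 and in 85.5, 80.7 and 92.6% in D2.

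In the clones without Ku70, the inserted bases mostly matched the start of TTCA, the capitals in the break region. A single T made up 51.1 ± 3.41% (SD, n = 3) of these insertions in D1 and 66.0 ± 7.80% in D2, and TT another 14.2 ± 1.35% and 15.6 ± 1.36%. In Lig4-/- a single T made up 12.7 ± 7.10% and TT 1.44 ± 1.52%. Insertions identical to the bases that follow the bait end in the unbroken sequence came to 66.9, 68.8 and 71.8% in D1 and to 83.9, 79.6 and 92.1% in D2. In Lig4-/- they came to 5 of 26, 3 of 78 and 6 of 66. Such a read can equally be written as a bait end that reaches past the break by as many bases. When insertions that matched the bases after the bait end or before the prey start were set aside, insertions in chr6 deletional junctions still made up 5.61, 11.2 and 9.02% of all Lig4-/- junctions. In D1 they made up 1.09, 1.27 and 1.17% and in D2 1.09, 0.769 and 0.470%, so neither clone overlapped Lig4-/- on this share, which was added after the data were seen. Per 100000 raw reads the order was otherwise: such junctions came to 3.17, 12.3 and 10 in Lig4-/-, to 31.3, 35.8 and 33.5 in D1 and to 31.2, 20.8 and 4.83 in D2. D1 lay above Lig4-/- and D2 overlapped it.

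Prey on chr6 beyond 100 kb was more frequent without Ku70, and nearly all of it lay in Igk. This class held 2.06, 1.67 and 1.203% of Lig4-/- junctions, 5.87, 6.97 and 7.03% of D1 and 8.01, 7.71 and 7.43% of D2. Igk, at mm10 chr6:67555636-70726754, held 5, 7 and 7 junctions in Lig4-/-. It held 971, 1124 and 1160 in D1 and 1272, 1202 and 432 in D2, which was 92.4 to 95.9% of the far junctions of those libraries. In Lig4-/- too most far junctions lay in Igk, at 5 of 7, 7 of 11 and 7 of 8. As a share of all junctions, Igk prey made up 1.47, 1.06 and 1.05% in Lig4-/-, 5.63, 6.66 and 6.73% in D1 and 7.41, 7.39 and 7.01% in D2. The share was added as a measure after the data were seen, and neither clone overlapped Lig4-/- in it. Per 100000 raw reads Igk joins stood at 1.06 ± 0.19 (SD, n = 3), 181 ± 16.7 and 161 ± 77.7.

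The Igk joins lay at the borders of gene segments. In D1 84.9, 86.5 and 86.8% and in D2 81.5, 86.8 and 82.6% of them fell within 100 bp of the edge of an annotated V or J segment, windows that cover 2.08% of the locus. In Lig4-/- 3 of 5, 4 of 7 and 6 of 7 Igk joins did so. Of 167 annotated segments, 112 were hit in D1 and 104 in D2. The 98 hit in both were 87.5% of the D1 segments and 94.2% of the D2 segments. Igkv1-135 took 9.78 ± 0.43% (SD, n = 3) of the Igk joins of D1 and 10.0 ± 0.40% of those of D2, and Igkv6-32 took 8.41 ± 0.92% and 8.13 ± 0.39%. Igkj1, the first J segment, took 9.38 ± 0.90% in D1 and 6.39 ± 2.19% in D2. The Pearson correlation of the D1 and D2 shares over the 167 segments was 0.97, with segments measured in the same libraries and not independent.

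At Igkj1 joins lay on both sides of the border at which RAG cuts. On the signal side lay 53, 73 and 69 joins in D1 and 47, 64 and 22 in D2. On the coding side lay 32, 44 and 35 joins in D1 and 11, 42 and 3 in D2. All J segments together held 10.8, 13.4 and 12.6% of Igk joins in D1 and 5.503, 13.1 and 6.48% in D2, with D2 replicate 2 again at the level of D1. Orientation was near even, with 45.4 to 47.6% of D1 and 44.7 to 49.4% of D2 Igk joins on the plus strand.

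Igk joins were the most often direct of the large classes. Direct joins made up 59.4, 60.4 and 54.6% of them in D1 and 57.4, 56.4 and 62.0% in D2, against 37.3, 36.5 and 38.7% and 40.4, 40.1 and 39.3% of junctions within 10 bp of the break. Overlaps of at least 2 bp made up 17.1 to 19.6% of Igk joins in these 6 libraries and insertions 0.749 to 1.62%. Nearly every Igk join was distinct, with 970 distinct among 971 in D1 replicate 1 and none repeated in the other 5 libraries without Ku70. The 19 Igk joins of Lig4-/- are too few for such shares.

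**Figure D5:**
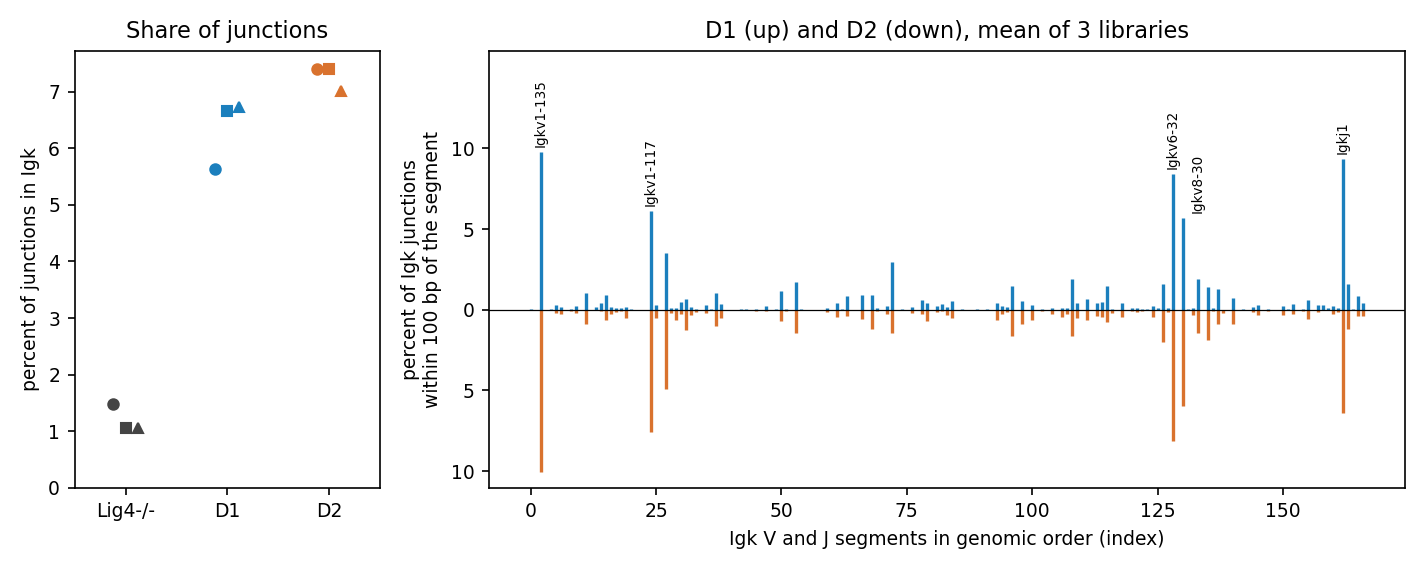
Left, percent of junctions in Igk (vertical axis) for each library (circle, square and triangle for replicates 1, 2 and 3). Right, percent of Igk junctions within 100 bp of each of the 167 segments in genomic order (horizontal axis), as the mean of 3 libraries, with D1 drawn upward and D2 downward; the tall lines, Igkv1-135, Igkv1-117, Igkv6-32, Igkv8-30 and Igkj1, stand at the same places in both clones.

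Joins to other chromosomes did not separate the groups by their share of all junctions. They held 5.31, 1.52 and 1.504% of Lig4-/- junctions, 1.73, 1.90 and 1.91% of D1 and 8.65, 1.67 and 2.94% of D2. Exact permutation p was 1.0 for D1 and 0.5 for D2. Many such reads in the clones carried a run of at least 12 G, and whether those reads are joins was not tested. Shares that include them may therefore not count joins alone. This held for 156, 195 and 196 interchromosomal reads in D1, for 1267, 123 and 100 in D2 and for 1, 0 and 1 in Lig4-/-. The D2 replicate 1 share rests on 85.3% such reads. Without reads of this kind the class held 0.832, 0.750 and 0.781% of D1, 1.39, 0.924 and 1.34% of D2 and 5.03, 1.52 and 1.36% of Lig4-/-, where the first library rests on 17 reads. The D2 difference then turned from 1.64 to -1.42 percentage points, though D2 still overlapped Lig4-/-. D1 then lay below Lig4-/- in all 3 libraries. Over all reads, those with a run of G included, the D2 difference was -0.47 points without D2 replicate 1, and the D1 difference was 0.33 points without Lig4-/- replicate 1.

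No window of 100 kb on another chromosome held 1% of the junctions of any group. Among interchromosomal reads without a run of G, other antigen receptor loci recurred. The loci Igh, Igl, Tcra with Tcrd, and Tcrg, which encode immunoglobulin and T-cell receptor chains, together held 21 of 142, 20 of 125 and 29 of 133 such reads in D1. They held 25 of 219, 25 of 149 and 9 of 81 in D2, and 0 of 17, 0 of 10 and 1 of 9 in Lig4-/-. The loci span 2751187, 233987, 1796232 and 178435 bp in that order, and the share expected from their length was not computed. The 36 such reads of Lig4-/- are too few to set against the clones. Summed over libraries, Tcra held 28 reads in D1 and 25 in D2, Tcrg 22 and 13, Igl 19 and 17, and Igh 1 and 4.

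The clones differed from each other in overlaps of at least 2 bp, where D2 lay 3.17 ± 1.02 percentage points (SE) below D1 without overlap (exact permutation p = 0.1). Their interchromosomal share, median prey loss and junction abundance overlapped, with exact permutation p = 0.4, 0.3 and 0.2 (two-sided, 3 libraries a clone). Without D2 replicate 2, median prey loss and interchromosomal share no longer overlapped between the clones. With each distinct junction counted once, the difference in overlaps of at least 2 bp was -0.58 points and the clones overlapped. The D2 comparisons with Lig4-/- use the same controls as those of D1, so the likeness of their differences from Lig4-/- is not independent evidence.

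Libraries of the same clones with Ku70 put back, labelled +Ku70 and read in the same runs as D1 and D2, are given as values only. D1 +Ku70 held 201, 165 and 140 junctions per 100000 raw reads and D2 +Ku70 367, 32.7 and 26.8. Across these 6 libraries 18.0 to 80.1% of junctions were on other chromosomes, mostly in reads with a run of G, which may not be joins. In D1 +Ku70, direct joins made up 24.4, 33.3 and 35.4% of chr6 deletional junctions and overlaps of at least 2 bp 50.2, 37.6 and 34.9%. Those shares lie between the Lig4-/- and the D1 libraries. Prey losses over 100 bp made up 5.79, 4.32 and 5.84%, also between the 12.3 to 15.6% of Lig4-/- and the 0.228 to 0.339% of D1. Loss over 10 bp from the prey alone also lay between, at 13.7, 13.3 and 10.8% of the chr6 deletional junctions of D1 +Ku70. Loss over 10 bp from both ends, median bait loss and bait losses over 20 bp instead lay near D1. More than 10 bp was missing from both ends in 32.9, 32.6 and 35.6% of the chr6 deletional junctions of D1 +Ku70. Over chr6 deletional junctions alone, median bait loss was 11 bp in each D1 +Ku70 library and 13, 12 and 11 bp in D1. Bait losses of 21 to 40 bp held 23.3 ± 2.63% (SD, n = 3) of all D1 +Ku70 junctions. Of that set 18.0, 23.0 and 23.5% had prey on other chromosomes, against 1.73 to 1.91% in D1, so the sets are unlike. The D2 +Ku70 libraries held 737, 69 and 25 chr6 deletional junctions, with direct joins at 32.0, 24.6 and 20%.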

How the data were processed

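Libraries of genomic DNA from v-Abl pro-B cells were primed at the Eb site by a published junction-sequencing protocol without its enzyme blocking step, and the authors made junction lists with the JoinT-seq pipeline, per the labels. Each line is 1 read with the aligned position of bait and prey in mm10; mm10 and Bowtie2 are named in the submitters' processing notes, without a role or version. Filters were not given in the sources used here. Each list was normalised to 600000 raw reads, per the labels. The deposited values are positions, lengths and read sequences rather than scores, so no count model was fitted.

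From these lists, lengths of overlap and insertion were taken from the aligned stretches of the read, and base loss from the edges of the break. Shares were computed per library and compared over 3 libraries a group by exact permutation of library labels, two-sided, on the difference of group means (scipy 1.17.1, numpy 2.4.6, pandas 2.3.3, Python 3.11.15), with Benjamini-Hochberg adjustment over 34 tests. Abundance was log2 of the count plus 0.5 per 100000 raw reads. Median losses were tested as log10(1 + bp). The exact junction is the bait end, prey chromosome, start, strand and the overlap or insertion length. The named junctions are the 5 most frequent of each group by mean library percentage, the named prey windows those of 100 kb with at least 1% of a group's reads, and overlaps were described from 0 to 10 bp. Gene positions came from RefSeq for GRCm38.p6, which has the coordinates of mm10. Matplotlib 3.10.9 drew the figures. The scripts were tested on simulated junction lists with known shares. The libraries, measures and lists were chosen with earlier results of these data known. Igk share, prey losses over 100 bp, insertions matching neither end, counts without runs of G, and the use of the second prey position and of distinct fragments were added after the data were seen. Alternatives comprised other windows, overlap minimums, break positions, counting each junction once, leaving out each library, and a replicate block.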

Additional observations from a re-analysis of the deposited data

How the results depend on the processing

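Across the alternatives, 267 of 272 values for D1 against Lig4-/-, 259 of 272 for D2 against Lig4-/- and all 64 for D2 against D1 kept their direction, with the smallest exact permutation p at 0.1 and 0 past 0.05. Differences in shares are in percentage points and those in median losses in log10(1 + bp). With each distinct junction counted once, D1 reversed in prey losses of 11 bp to 100 kb (-15.6) and in interchromosomal share (4.20), and D2 in joins within 10 bp of the break (-18.4) and in median prey loss (0.0099). The D2 share within 10 bp also reversed with the break placed from Lig4-/- (-4.30), within 5 bp (-1.37), within 20 bp (-2.66) and with each distinct fragment counted once (-3.24). D1 median prey loss reversed as a mean of logs (-0.12), and D2 interchromosomal share without reads holding a run of G (-1.42). The cause was not tested. When each library was left out in turn, differences ranged from -1.57 to 0.33 for D1 interchromosomal share, -0.0085 to 0.12 for D1 median prey loss, -1.75 to 5.52 for D2 joins within 10 bp, -0.47 to 3.02 for D2 interchromosomal share, -0.11 to 0.019 for D2 median prey loss and -4.25 to 0.34 for D2 insertion share. With the replicate block, direct joins differed by 35.5 in D1 and 35.9 in D2, and the smallest p it can give is 0.25. Same-numbered libraries shared only a number: their deviations correlated at 0.29, -0.09 and 0.03 for D1 and -0.05, 0.04 and 0.23 for D2. No prey window held 1% of junctions, so leaving such windows out removed 0 windows. The Lig4-/- libraries limit the depth, since 3 junctions there are 0.451 to 0.885%.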
